A study of Mus musculus with 24 samples.

Results

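The Cyp4 genes described here encode cytochrome P450 enzymes that hydroxylate fatty acids at or near their methyl end. They were chosen by name: spots whose gene name was Cyp4a10, Cyp4a14, Cyp4a31, Cyp4a12a, Cyp4a12b, Cyp4f14, Cyp4f15 or Cyp4v3, with the brightest probe of each gene taken where there were several. This gave 8 genes of the 37008 named on the arrays, and 6 of the 8 were among the 18634 genes with enough signal to be tested. The other 2, Cyp4a12a and Cyp4a12b, were not well above background on most arrays.

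Livers came from 24 C57BL/6JRcc mice labelled female, killed at postnatal day 42 (6 weeks of age), food-deprived and in the light phase. From 3 weeks of age and for 3 weeks, 12 mice ate a diet in which glucose was replaced in part by galactose to give equal amounts of each (GLU+GAL), and 12 ate a diet with glucose as its only monosaccharide (GLU). Both semi-synthetic diets held 16% of energy as fat, 20% as protein, 32% as starch and 32% as monosaccharide, so every mouse, on either diet, was fed a purified diet and then deprived of food. RNA of the right lobe, labelled with Cy5, was hybridised against a Cy3-labelled pool of all the mice, on 1 array per mouse and with no dye swap. Values below are log2 ratios of a mouse over that pool unless they are called Cy5 signals, which are scanner units and are not compared between genes.

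Omega-hydroxylation starts a route by which fatty acids become dicarboxylic acids, after oxidation by alcohol and aldehyde dehydrogenases, which peroxisomes then shorten. The route is minor in the fed liver and grows in fasting, when fatty acids reach the liver in quantity. Cyp4a10 and Cyp4a14 are textbook targets of PPARalpha, the fatty acid-sensing nuclear receptor of hepatocytes. Cyp4a12a and Cyp4a12b are known in mice as male-predominant genes, while Cyp4f enzymes include hydroxylases that inactivate leukotriene B4 and Cyp4v3 is the mouse counterpart of human CYP4V2, mutated in a crystalline retinal dystrophy.

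Which transcripts a probe can bind matters in this family, because its genes lie side by side and are alike in sequence. In the array's annotation on build mm9, the probes used for Cyp4a12a, Cyp4a12b, Cyp4a14, Cyp4a10 and Cyp4a31 lie on chromosome 4, at chr4:115005258-115005317, chr4:115111580-115111639, chr4:115168609-115168668 (minus strand), chr4:115205268-115205756 and chr4:115251553-115251612. Those for Cyp4f15 and Cyp4f14 lie on chromosome 17, at chr17:32840088-32840147 and chr17:33042214-33042273 (minus strand), and that for Cyp4v3 on chromosome 8, at chr8:46391395-46391454 (minus strand). Probes were 60 bases long, and the Cyp4a10 interval of 489 bases is longer than its probe. Exon and UTR positions were not looked up, as no genome of this build was used. All 3 Cyp4a10 probes were listed for Cyp4a32 as well as Cyp4a10, the second Cyp4a31 probe for Cyp4a10 as well as Cyp4a31, and the Cyp4a12a probe for Cyp4a12b too. The probes used for Cyp4a14, Cyp4a31, Cyp4a12b, Cyp4f14, Cyp4f15 and Cyp4v3 were each listed for 1 gene. In these sequences, 5′ to 3′ as on the array, the first pair is shown because it had the highest share of identical bases between probes of different members: over an overlap of 26 bases, the 22 in capitals are identical.
Cyp4a10, probe at chr4:115197445-115197926: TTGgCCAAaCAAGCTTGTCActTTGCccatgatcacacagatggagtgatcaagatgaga
Cyp4a31, second probe at chr4:115242872-115242931: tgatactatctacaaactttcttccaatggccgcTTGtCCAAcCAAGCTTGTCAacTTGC
The next pair, with nothing marked, is a further Cyp4a10 probe and the only Cyp4a14 probe, which shares a run of 12 bases with the second Cyp4a31 probe.
Cyp4a10, probe at chr4:115198463-115198522: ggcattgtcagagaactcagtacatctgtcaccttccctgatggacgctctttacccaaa
Cyp4a14, probe at chr4:115168609-115168668 (minus strand): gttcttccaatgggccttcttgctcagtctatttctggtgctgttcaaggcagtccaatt
The 2 further Cyp4a10 probes followed the one used over the 24 mice with Pearson correlations of 0.99 and 0.97, and the second Cyp4a31 probe followed the one used with 0.97. The same 2 Cyp4a10 probes followed the Cyp4a31 probe used with 0.99 and 0.98, at least as closely as their own gene's probe. Probes of Cyp4a10 and Cyp4a31 were thus not set apart by these correlations. How far the signals of these genes mix on the array was not tested.

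The share of spots with Cy5 well above background was 46.6% to 51.3%. On array GLU+GAL 4 the pool channel had a median correlation of 0.968 with the other arrays, where the next lowest array had 0.990. On array GLU+GAL 12, against its label of female, Xist was not above background. There 2 genes of the Y chromosome, Eif2s3y and Ddx3y, were above background, as on no other array. Y-linked Kdm5d was well above background on every array and so does not set this mouse apart. Results are therefore also given without mice GLU+GAL 4 and 12. All 9 hepatocyte markers on the arrays were well above background on every array. At an unadjusted p under 0.05 in limma, 4 of these 9 were lower in GLU+GAL livers, as were 5 of 10 Kupffer cell markers, where 2.66% of all genes were lower. None of either list was higher, where 1.65% of all genes were. Means were lower in GLU+GAL for 8 of the 9 hepatocyte markers and all 10 Kupffer cell markers, against 49.2% of all genes. The list means ran from 0.01 to 0.32 in GLU+GAL and from 0.17 to 0.56 in GLU for hepatocyte markers, and from -0.59 to 0.30 in GLU+GAL and from -0.18 to 0.77 in GLU for Kupffer cell markers. Summed Cy5 signals overlapped, at 1394941 to 1846131 in GLU+GAL and 1330166 to 1910933 in GLU for hepatocyte markers, and 23504 to 47809 in GLU+GAL and 27874 to 56170 in GLU for Kupffer cell markers. The part of these shifts in the results below was not tested, and in a whole lobe fewer cells of a type and less RNA per cell cannot be told apart.

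In none of the 6 Cyp4 genes tested was a diet difference detected against the spread between mice. Of the 6 genes tested, 4 had a lower and 2 a higher mean in GLU+GAL livers, and all had limma's adjusted p at 0.999. None of the 6 reached an unadjusted p under 0.05, which 4.3% of all genes did, and 0% of all genes passed the adjusted threshold of 0.05, the lowest adjusted p being 0.522. The median difference, GLU+GAL minus GLU, was -0.04 over the 6 genes and 0.00124 over all genes. The plot of the 6 genes by diet shows how much the diets overlapped.

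**Figure D1:**
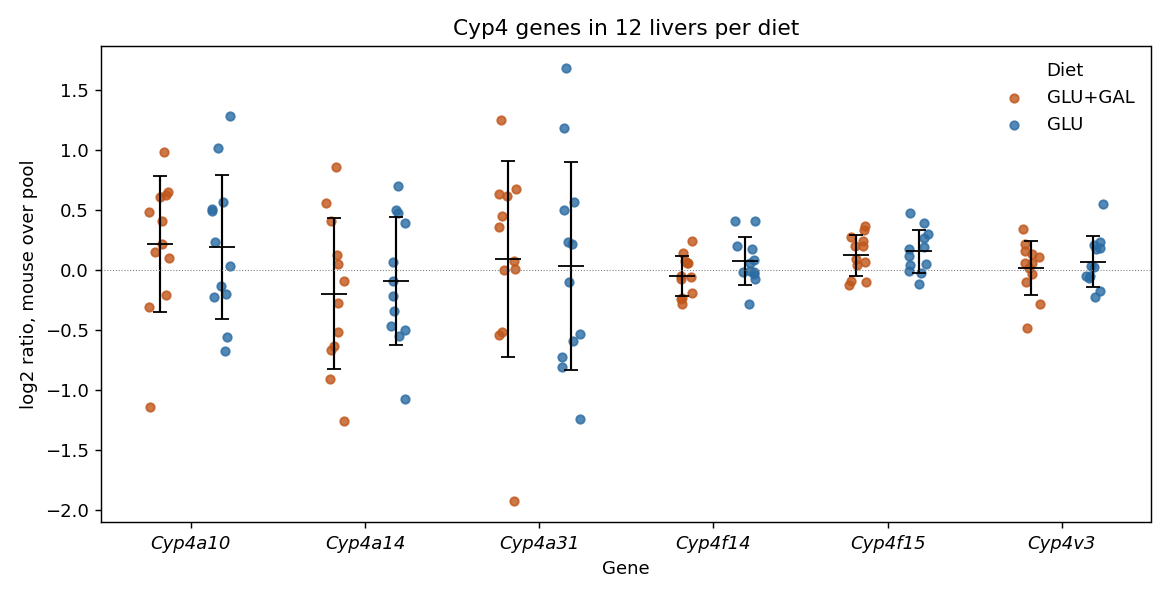
Log2 ratio of each mouse over the pool (vertical axis) for the 6 Cyp4 genes tested (horizontal axis), GLU+GAL mice left and GLU mice right of each pair, 12 per diet. Points are mice and black bars are the mean ± SD. The diets overlap in all 6 genes, and Cyp4a10, Cyp4a14 and Cyp4a31 spread more widely than Cyp4f14, Cyp4f15 and Cyp4v3.

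Cyp4a10, which hydroxylates medium- and long-chain fatty acids, ranged from -1.15 through a median of 0.31 to 0.98 in GLU+GAL livers, and from -0.68 through 0.13 to 1.28 in GLU livers. Mouse GLU+GAL 3 was lowest and mouse GLU 5 highest, so the ends of the range lay in opposite diets, and the diets overlapped. Cy5 signals ran from 3405 to 24314 in GLU+GAL and from 4267 to 24532 in GLU. The means were 0.21 ± 0.57 in GLU+GAL and 0.19 ± 0.60 in GLU (SD, n = 12 each), a difference of 0.02 ± 0.22 (SE) with a 95% interval from -0.43 to 0.47. On the linear scale this interval allows a GLU+GAL level from 0.743 to 1.38 times that of GLU.

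Cyp4a31, from the same chromosome 4 group, had the widest spread of the 6 by the probes used. It ranged from -1.93 through a median of 0.21 to 1.25 in GLU+GAL livers and from -1.24 through 0.06 to 1.68 in GLU livers. Again GLU+GAL 3 was the lowest mouse, GLU 5 the highest, and GLU+GAL 8 the highest of its diet. The means were 0.09 ± 0.81 in GLU+GAL and 0.03 ± 0.87 in GLU (SD, n = 12 each), a difference of 0.06 ± 0.31 (SE), 95% interval -0.58 to 0.70. Its Cy5 signals, 6573 to 63093 in GLU+GAL and 8609 to 65718 in GLU, were well above background on all arrays.

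Cyp4a14, the member of the group known in mice for its steep induction by fasting and fibrates, had Cy5 signals from 139 to 807 in GLU+GAL and from 208 to 611 in GLU, well above background on all 24 arrays. Log2 ratios ran from -1.26 through a median of -0.19 to 0.85 in GLU+GAL and from -1.08 through -0.16 to 0.70 in GLU. The lowest mouse was once more GLU+GAL 3, but the highest was GLU+GAL 1, so this diet held both extremes. The means of -0.20 ± 0.63 in GLU+GAL and -0.10 ± 0.53 in GLU (SD, n = 12 each) differed by -0.11 ± 0.22 (SE), 95% interval -0.55 to 0.34.

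Cyp4f14, a hydroxylase of leukotriene B4 and of vitamin E side chains, had the smallest p of the members. It ranged from -0.29 through a median of -0.05 to 0.23 in GLU+GAL livers and from -0.28 through 0.02 to 0.40 in GLU livers. Mice GLU 8 and GLU 9 lay above every GLU+GAL mouse, and the lowest mice of the diets, GLU+GAL 3 and GLU 3, were nearly level. The means were -0.05 ± 0.17 in GLU+GAL and 0.07 ± 0.20 in GLU (SD, n = 12 each), a difference of -0.12 ± 0.07 (SE), 95% interval -0.27 to 0.03, with an unadjusted p of 0.108 in limma. Without mouse GLU 3 the difference was -0.15 and limma's unadjusted p 0.0367, with an adjusted p of 0.998. Without GLU 8, and likewise without GLU 9, the difference was -0.09 and limma's unadjusted p 0.208.

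Cyp4f15, from the same chromosome 17 group, ran from -0.13 through 0.14 to 0.36 in GLU+GAL and from -0.12 through 0.15 to 0.48 in GLU, with nearly equal medians. The difference of means was -0.03 ± 0.07 (SE), 95% interval -0.18 to 0.11. Cyp4v3, which acts on fatty acids in many tissues, ran from -0.49 through 0.05 to 0.33 in GLU+GAL and from -0.23 through 0.03 to 0.55 in GLU, with GLU+GAL 1 lowest and GLU 7 highest. Its difference was -0.05 ± 0.09 (SE), 95% interval -0.23 to 0.12. The diets overlapped in both genes.

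Arrays lay on 3 slides of 8, with 4 arrays per diet on each, and the sign of most differences varied among slides. Within slides 1, 2 and 3 Cyp4a10 differed by 0.16, -0.09 and -0.02, Cyp4a31 by 0.32, -0.11 and -0.04, and Cyp4a14 by 0.06, -0.18 and -0.20. Cyp4f15 differed by -0.12, -0.21 and 0.24, with limma's unadjusted p of 0.0244 on slide 3 alone and an adjusted p of 0.960. Cyp4v3 differed by 0.04, -0.29 and 0.08, whereas Cyp4f14 was negative within each slide, at -0.06, -0.15 and -0.16. Without mice GLU+GAL 4 and 12 the signs of all 6 differences stood, at 0.04 for Cyp4a10, -0.04 for Cyp4a14, 0.08 for Cyp4a31, -0.13 for Cyp4f14, -0.03 for Cyp4f15 and -0.07 for Cyp4v3.

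Cyp4a12a and Cyp4a12b, the arachidonic acid hydroxylases that are abundant in male mouse liver and kidney, were close to background. Cyp4a12a was well above background in 0 GLU+GAL and 2 GLU mice, and Cyp4a12b in 1 GLU+GAL and 2 GLU mice, the GLU mice being GLU 5 and GLU 7 in both cases. Cy5 signals of Cyp4a12a ran from 59.7 through 65.1 to 76.8 in GLU+GAL and from 48.6 through 60.9 to 89.6 in GLU. Those of Cyp4a12b ran from 50.02 through 55.4 to 78.2 in GLU+GAL and from 42.4 through 55.4 to 98.6 in GLU. Both probes were brightest in mouse GLU 7, and the GLU+GAL mouse above background for Cyp4a12b was GLU+GAL 7. No fold between diets is given for these genes, and since the Cyp4a12a probe is also listed for Cyp4a12b they may not be separate readings.

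The same mouse stood out among sex-biased liver genes. Of 14 male-predominant genes tested, 8 were highest in GLU 7 among all mice, and of 15 female-predominant genes 7 were lowest in it. The share of all genes highest or lowest in GLU 7 was not counted. Hsd3b5, a male-predominant steroid dehydrogenase, had a log2 ratio of 1.39 in GLU 7, and Sult2a1, a female-predominant sulfotransferase, one of -3.87. Xist was well above background in GLU 7, with a Cy5 signal of 162, and Eif2s3y, Ddx3y and Uty were not. Y-linked Kdm5d was, as on every array. The part of this mouse's sex-biased pattern in its Cyp4a12 signals was not tested. The plot of Cyp4a12 signals against the mean of the male-predominant genes shows this mouse at the far right in both panels.

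**Figure D2:**
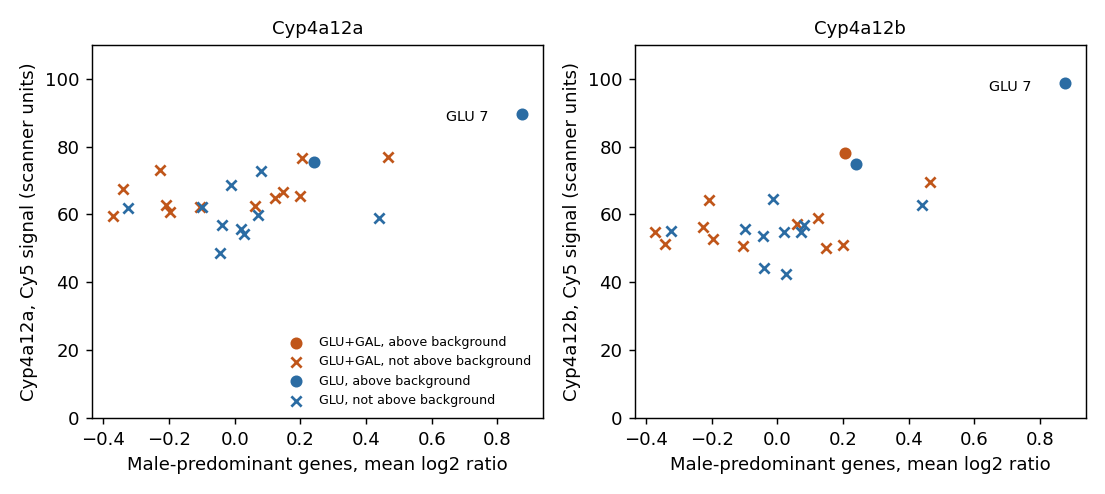
Cy5 signal in scanner units of Cyp4a12a (left) and Cyp4a12b (right) against the mean log2 ratio of 14 male-predominant liver genes, for 12 GLU+GAL and 12 GLU mice. Filled circles were well above background and crosses were not. Mouse GLU 7 has the highest signal of each gene, 89.6 and 98.6, and the highest list mean, 0.88.

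By diet, 12 of the 14 male-predominant genes had a lower and 2 a higher mean in GLU+GAL livers, with a median difference of -0.10, where 49.2% of all genes were lower. The list mean ran from -0.37 to 0.47 in GLU+GAL and from -0.32 to 0.88 in GLU, where GLU 7 was highest. Mouse GLU 7 is included in these diet values, and they were not taken without it. Of the 14, 0 were higher and 2 lower in GLU+GAL at an unadjusted p under 0.05, where 1.65% of all genes were higher and 2.66% lower. These 2 were Serpina1e (-0.26 ± 0.10, SE), a plasma protease inhibitor, and Gstp1 (-0.22 ± 0.08), a glutathione transferase, followed by Susd4 (0.18 ± 0.14) and the oxysterol hydroxylase Cyp7b1 (0.18 ± 0.13). Of the 15 female-predominant genes 8 had a higher and 7 a lower mean, with a median of 0.03, and none passed in either direction. The smallest p there belonged to Cux2 (-0.35 ± 0.21), Cyp3a16 (0.32 ± 0.22), Cyp3a41a (0.27 ± 0.19) and Sult2a1 (0.72 ± 0.57).

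The Cyp4a genes differed widely from mouse to mouse. Over the 24 mice the highest liver exceeded the lowest 12.2-fold in Cyp4a31, 5.37-fold in Cyp4a10 and 4.32-fold in Cyp4a14, against 2.05-fold in Cyp4v3, 1.62-fold in Cyp4f14 and 1.52-fold in Cyp4f15. Ranked by SD among 18634 genes, Cyp4a31 was 57th at an SD of 0.82, Cyp4a14 was 154th and Cyp4a10 157th, both at 0.57. Cyp4v3 (SD 0.21) was ranked 4648, at the 75th percentile. Cyp4f14 (0.19) and Cyp4f15 (0.17) were ranked 6902 and 8894, nearer the median SD of 0.169 over all genes. The spread lay within each diet: Cyp4a31 spanned 9.02-fold among GLU+GAL mice and 7.59-fold among GLU mice, and Cyp4a10 spanned 4.38-fold among GLU+GAL mice and 3.87-fold among GLU mice.

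The 3 Cyp4a genes varied together across mice, and Cyp4v3 went with them. Of 28 pairs among the 8 genes, 5 passed an adjusted p under 0.05 by Pearson correlation in a 2-sided permutation test with 100000 resamples, adjusted over the 28 pairs. All 5 were among the 15 pairs of genes that passed the filter. Cyp4a10 and Cyp4a31 had r = 0.99 and rho = 0.99, each with a permutation p of 1e-05, the smallest that these resamples can give, and an adjusted p of 9.33e-05 for r and 0.00028 for rho. With the same raw and adjusted p for r, Cyp4a14 followed Cyp4a10 with r = 0.78 and rho = 0.78 (permutation p of rho 3e-05, adjusted 0.00028) and Cyp4a31 with r = 0.79 and rho = 0.76 (permutation p of rho 2e-05, adjusted 0.00028).

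Cyp4v3 correlated with Cyp4a10 at r = 0.64 (permutation p 0.00083, adjusted 0.00487) and rho = 0.74 (permutation p 0.0001, adjusted 0.00056). It correlated with Cyp4a31 at r = 0.64 (permutation p 0.00087, adjusted 0.00487) and rho = 0.74 (permutation p 9e-05, adjusted 0.00056). With Cyp4a14 the measures parted: r was 0.49 (permutation p 0.0131, adjusted 0.0611) and rho 0.63 (permutation p 0.00114, adjusted 0.00532). That pair turned on single mice, as without GLU+GAL 3 and GLU+GAL 1 its r was 0.84. In GLU+GAL 1 Cyp4a14 was at its highest, 0.85, and Cyp4v3 at its lowest, -0.49. The scatter plots against Cyp4a10 show a tight line for Cyp4a31, looser ones for Cyp4a14 and Cyp4v3, and a cloud for Cyp4f14.

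**Figure D3:**
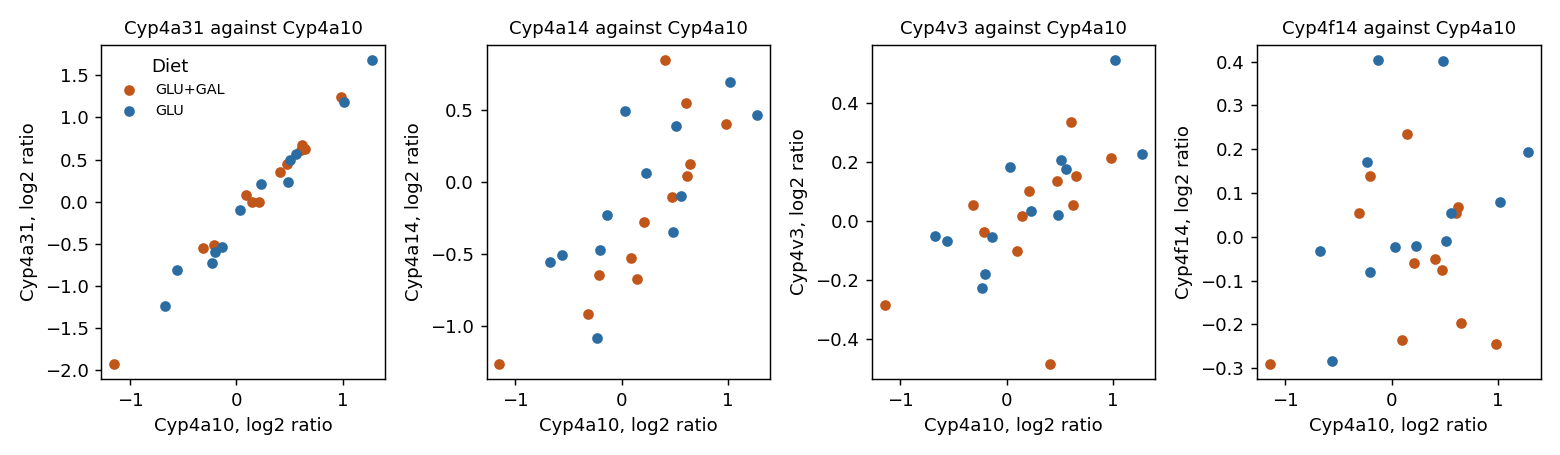
Log2 ratio over the pool of Cyp4a31, Cyp4a14, Cyp4v3 and Cyp4f14 (vertical axes) against that of Cyp4a10 (horizontal axes), each point a mouse, 12 GLU+GAL and 12 GLU. The correlations over 24 mice are 0.99, 0.78, 0.64 and 0.21, and mice of both diets lie along the same trends.

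The 5 pairs also passed without mice GLU+GAL 4 and 12, and correlations stayed above 0.5 without the 2 mice farthest from the median. Leaving out GLU+GAL 3 and GLU 5, r was 0.99 for Cyp4a10 with Cyp4a31, 0.71 with Cyp4a14 and 0.56 with Cyp4v3, and 0.58 for Cyp4a31 with Cyp4v3. Leaving out GLU+GAL 3 and GLU+GAL 1, r was 0.77 for Cyp4a14 with Cyp4a31. Within diets, Cyp4a10 and Cyp4a31 had r = 1.00 in GLU+GAL and 0.99 in GLU, Cyp4a10 and Cyp4a14 had 0.84 in GLU+GAL and 0.73 in GLU, and Cyp4a10 and Cyp4v3 had 0.52 in GLU+GAL and 0.77 in GLU. The difference between diets in these correlations was not tested.

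Within slides 1, 2 and 3, of 8 mice each, r was 0.99, 0.99 and 0.98 for Cyp4a10 with Cyp4a31, 0.75, 0.55 and 0.80 with Cyp4a14, and 0.78, 0.57 and 0.81 with Cyp4v3. For Cyp4a31 it was 0.77, 0.53 and 0.84 with Cyp4a14, and 0.80, 0.56 and 0.87 with Cyp4v3. By exact permutation over 8 mice only 2, 1 and 2 of the 28 pairs passed the adjusted threshold within slides 1, 2 and 3. Ratios on an array share its pool channel and normalisation, so the correlations are not free of what arrays have in common.

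The Cyp4f genes stood outside this group. Cyp4f14 had r = 0.21 with Cyp4a10 (permutation p 0.316, adjusted 0.68), 0.15 with Cyp4a31 and 0.01 with Cyp4a14. Cyp4f15 had r = 0.09 with Cyp4a10, 0.06 with Cyp4a31 and 0.07 with Cyp4a14. Nor did they follow each other, at r = -0.09 (permutation p 0.688, adjusted 0.842). Over the 24 mice the highest r for either Cyp4f gene was 0.44, between Cyp4f15 and Cyp4v3 (permutation p 0.0311, adjusted 0.125). These values pool slides that differed. Within slides 1, 2 and 3, of 8 mice each, r between Cyp4f14 and Cyp4f15 was -0.47, 0.63 and -0.59. It was -0.20, 0.66 and 0.37 for Cyp4f14 with Cyp4a10, and 0.08, 0.81 and -0.08 for Cyp4f15 with Cyp4v3.

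**Figure D4:**
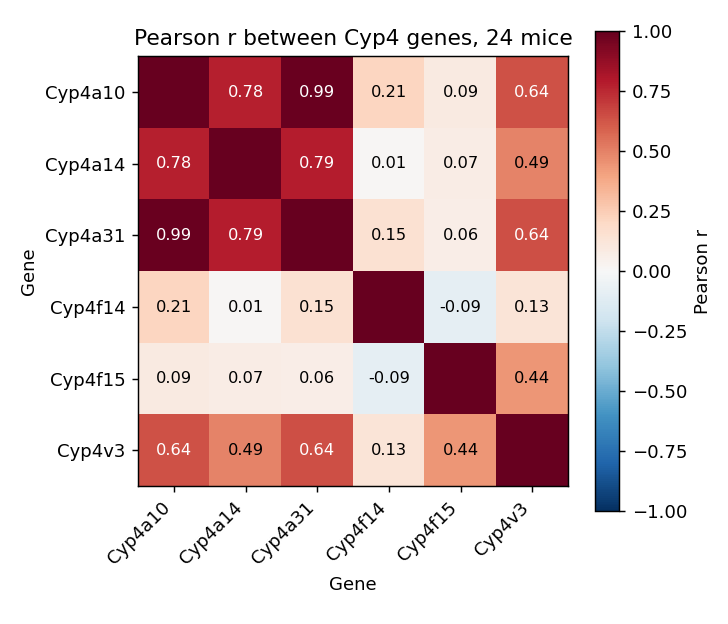
Pearson correlation over 24 mice between the log2 ratios of the 6 Cyp4 genes tested, from blue (negative) to red (positive). Cyp4a10, Cyp4a14, Cyp4a31 and Cyp4v3 form a block with correlations from 0.49 to 0.99, and Cyp4f14 and Cyp4f15 have values from -0.09 to 0.44.

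Among 18633 other genes, Cyp4a31 was the one most correlated with Cyp4a10. Cyp4a10 and Cyp4a31 ranked 6 and 4 among genes correlated with Cyp4a14. Outside the Cyp4 family, and among genes with a matched symbol, the 3 most like Cyp4a10 over the 24 mice were Eci1 (r = 0.94), a mitochondrial enoyl-CoA isomerase of fatty acid oxidation, Retsat (0.90), retinol saturase, and Hsd17b4 (0.89), the multifunctional enzyme of peroxisomal oxidation. Those most like Cyp4a31 were Eci1 (0.95), Etfdh (0.91), which passes electrons from acyl-CoA dehydrogenases to ubiquinone, and Abcb4 (0.90), the phospholipid transporter of bile canaliculi. For Cyp4a14 they were Hsd17b11 (0.84), a lipid droplet dehydrogenase, Retsat (0.81) and the cytochrome P450 Cyp2d26 (0.80).

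The genes most like Cyp4v3 were Ormdl3 (0.84), a regulator of sphingolipid synthesis, Cyp2d26 (0.83) and Cyp2d11 (0.82). For Cyp4f14 they were Aars (0.76), alanyl-tRNA synthetase, Hacd2 (0.75), a dehydratase of fatty acid elongation, and Tmem254a (0.74). For Cyp4f15 they were Scarb1 (0.78), the HDL receptor, 0610005C13Rik (0.77) and Ell (0.77), a transcription elongation factor. These values describe the top of a ranking and carry no test.

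PPARalpha targets outside the Cyp4 family varied along with the Cyp4a genes. Of 29 tested, 23 had r above 0.5 with Cyp4a10, at a median of 0.75, where 5.76% of 18621 genes outside the family did and their median was 0.0128. Of 18 genes of peroxisomal dicarboxylate oxidation, the step that follows omega-oxidation, 14 had r above 0.5, at a median of 0.69. With Cyp4a14 the counts were 19 of 29 and 14 of 18, against 2.64% of all genes, and with Cyp4v3 they were 10 of 29 and 8 of 18, against 3.48%. With Cyp4f14 they were 0 of 29 and 0 of 18, against 2.46%, and with Cyp4f15 they were 1 of 29 and 1 of 18, against 3.58%.

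**Figure D5:**
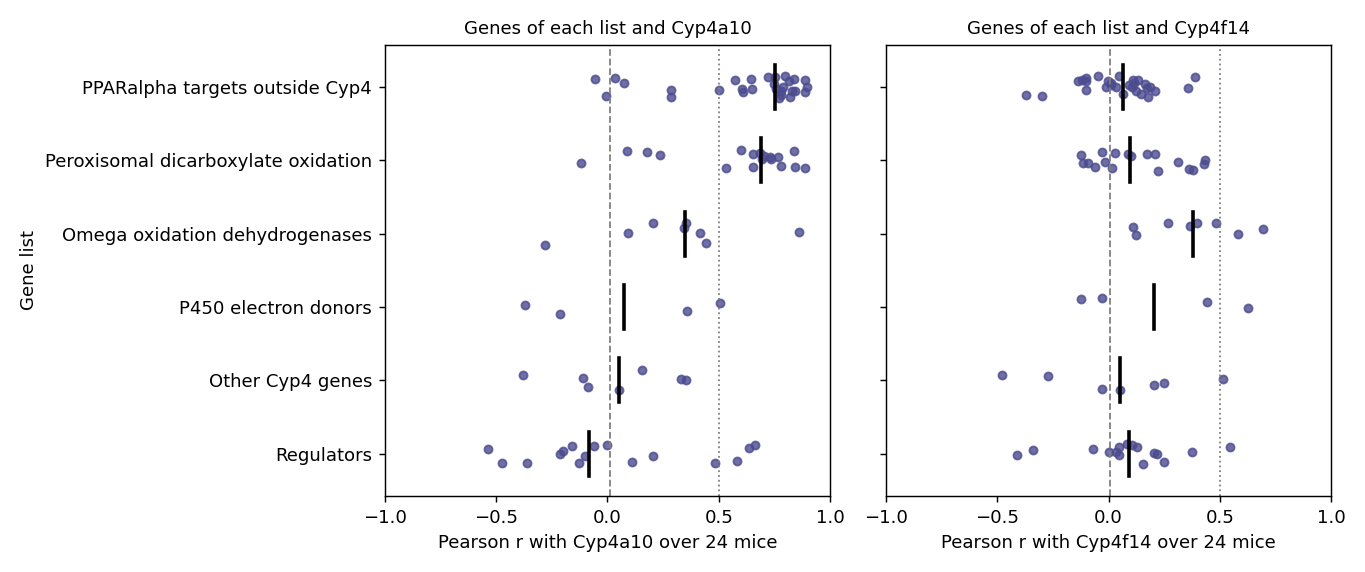
Pearson correlation over 24 mice of each gene of 6 lists with Cyp4a10 (left panel) and with Cyp4f14 (right panel), each point a gene and each black bar the median of its list. The dashed line is the median of all genes outside the Cyp4 family and the dotted line is 0.5. Most PPARalpha targets and peroxisomal genes lie above 0.5 with Cyp4a10 and none does with Cyp4f14.

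For Cyp4a10 the counts over PPARalpha targets were 22 of 29 among GLU+GAL mice, where 7.66% of all genes exceeded 0.5, and 22 of 29 among GLU mice, where 11% did. They were 23 of 29 without GLU+GAL 4 and 12 (6.9% of all genes) and 22 of 29 without GLU 7 (4.87%). Over peroxisomal genes the count was 14 of 18 in each of these 4 subsets. Without the extreme mice GLU+GAL 3 and GLU 5 they were 18 of 29 and 11 of 18, against 4.32% of all genes. The mean of the PPARalpha targets was itself lowest in GLU+GAL 3, at -0.78, and highest in GLU 7, at 0.46.

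Between diets, most genes of these lists had a lower mean in GLU+GAL livers, but few passed. Among PPARalpha targets 6 had a higher and 23 a lower mean, with a median difference of -0.05, where 49.2% of all genes were lower and their median was 0.00124. Of the 29, 1 was lower at an unadjusted p under 0.05, which 2.66% of all genes were. This was the lipid droplet protein Plin2 (-0.34 ± 0.15, SE), followed by the fatty acid translocase Cd36 (0.23 ± 0.11), the fasting hormone Fgf21 (-0.59 ± 0.32) and the fatty acid-binding protein Fabp1 (-0.30 ± 0.19). Among peroxisomal genes 3 had a higher and 15 a lower mean, with a median of -0.11, and 0 of 18 passed. The smallest p belonged to the bifunctional enzyme Ehhadh (-0.18 ± 0.09), the transporter Abcd2 (-0.17 ± 0.09), the carrier protein Scp2 (-0.11 ± 0.08) and the acyl-CoA synthetase Acsl1 (-0.19 ± 0.14). Many genes of both lists varied together across mice, so the counts of lower means are not counts of independent genes. Mouse GLU+GAL 3 had the lowest mean of both lists, at -0.78 for PPARalpha targets and -0.55 for peroxisomal genes. The counts between diets were not taken without it.

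Of 8 alcohol and aldehyde dehydrogenases that act after omega-hydroxylation, 0 passed an unadjusted p under 0.05. Adh1 differed by -0.16 ± 0.09 (SE), Adh5 by 0.08 ± 0.06, Aldh2 by -0.08 ± 0.07 and Aldh1a1 by 0.16 ± 0.16. Only 1 of the 8 had r above 0.5 with Cyp4a10, where 5.76% of genes outside the Cyp4 family did, and their median was 0.35. That gene was Aldh3a2, the fatty aldehyde dehydrogenase, at 0.86, singled out after its value was seen. It had r = 0.89 with Cyp4a31, where 5.6% of all genes exceeded 0.5, and 0.75 with Cyp4v3.

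The 4 electron donors of microsomal P450 enzymes did not pass either. Cyb5b differed by -0.08 ± 0.07 (SE), Por, the P450 reductase, by -0.13 ± 0.14, Cyb5r3 by -0.05 ± 0.08 and Cyb5a by 0.02 ± 0.07. With Cyp4a10 their correlations ran from -0.37 for Cyb5b to 0.50 for Cyb5a.

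Among 16 regulators 0 were higher and 1 lower at an unadjusted p under 0.05, where 1.65% of all genes were higher and 2.66% lower. That gene was Hnf4a (-0.16 ± 0.07, SE; unadjusted p 0.0227 and adjusted p 0.999 in limma), a hepatocyte transcription factor also counted among the hepatocyte markers. Cux2 (-0.35 ± 0.21), Stat5a (-0.07 ± 0.05) and Esr1 (-0.15 ± 0.12) followed. With Cyp4a10 the 16 had a median r of -0.08, and 3 were above 0.5, where 5.76% of genes outside the Cyp4 family were. These 3 were the nuclear receptors Nr1i3 (0.66), Rxra (0.63) and Hnf4a (0.58), named after their values were seen. Ppara, the receptor gene itself, had r = 0.48 with Cyp4a10 and a diet difference of -0.05 ± 0.10.

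The 7 other Cyp4 genes that passed the filter did not differ between diets at the threshold. Cyp4f13, Cyp4f16, Cyp4f17, Cyp4f18, Cyp4f40, Cyp4b1 and Cyp4x1 included 6 with a lower and 1 with a higher mean in GLU+GAL livers, and 0 at an unadjusted p under 0.05. Differences ran from -0.07 ± 0.06 (SE) for Cyp4f18 to 0.06 ± 0.09 for Cyp4x1, with Cyp4f13 at -0.07 ± 0.05, Cyp4b1 at -0.06 ± 0.07, Cyp4f40 at -0.04 ± 0.06, Cyp4f17 at -0.04 ± 0.06 and Cyp4f16 at -0.01 ± 0.07. None had r above 0.5 with Cyp4a10, where their values ran from -0.38 for Cyp4f16 to 0.35 for Cyp4f17.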

How the data were processed

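Scanner files deposited by the authors held an intensity per spot and channel. Agilent Feature Extraction 10.7.3.1 is named in the file headers and also per the submitters' processing notes. Mean signals were intensities as scanned, and processed signals were background- and dye-corrected, per the file headers. A table of log2 values deposited by the authors, with a median of 8.6 in every column, matched each array's own Cy5 channel; its scaling is not stated in those sources, and it served as an alternative.

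Background was corrected by normexp (offset 50) and log2 ratios were normalised by loess within each array. Tools were R 4.3.3 and its package limma 3.58.1. Replicate spots were averaged. Probes were kept when 6 or more arrays of a diet had Cy5 well above background, and a gene was its brightest probe. The 2-sided test of GLU+GAL minus GLU used lmFit and eBayes of limma on 24 arrays, and its p-values were adjusted by Benjamini-Hochberg across 18634 genes. Correlations used 100000 permutations, or all of them under 10 mice. The steps were tested on simulated data. Alternatives covered background, normalisation, Cy5 alone, the deposited table, filters, probe rule, variance model, array weights, slide, replicate number and left-out arrays. The number of arrays limits the precision.

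Members, gene lists and tests were chosen with earlier results of these data known. Named were all members, other Cyp4 genes past the filter, the 4 smallest p of each list of pathway, regulator and sex-biased genes, and the 3 genes most like each member. The labels give a mouse per array and no litter or cage. The same replicate number in both diets is not said to pair mice, so no pairing was used in the main test. Even so, the deviations of same-numbered mice correlated above 0.1 in 8 of 12 pairs, with a median r of 0.16. What same-numbered mice share was not tested. Slide and scan cannot be told apart. Plots used matplotlib 3.10.9.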

Additional observations from a re-analysis of the deposited data

Results flagged for a closer look

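On array GLU+GAL 12, Cy5 signals of 2 of 3 Y-linked genes that did not pass the filter lay above every GLU array, outside the comparisons made here. A further Y-linked gene, Kdm5d, passed the filter and was well above background on every array. Eif2s3y reached 452, which was 7.50 times the highest GLU array at 60.3, and Ddx3y reached 91, which was 2.17 times the highest GLU array at 42. Both were well above background on that array and on no GLU array, although all mice were labelled female. The third gene, Uty, was above background on no array, with a highest GLU+GAL signal of 53.02, on that array, and a highest GLU signal of 53.7.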

How the results depend on the processing

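No Cyp4 gene passed the adjusted threshold under any alternative. Across all genes the count past it was 0, except for 1 without array GLU 3, so leaving out arrays gave 0 to 1. The signs of small differences did vary. Cyp4a10 was -0.044 with array weights, -0.089 within slide 2 and -0.018 within slide 3, and ran from -0.060 to 0.14 with single arrays left out. Cyp4a31 was -0.022 with array weights, -0.11 within slide 2 and -0.042 within slide 3, and ran from -0.058 to 0.24 with single arrays left out. Cyp4a14 was 0.060 within slide 1. With single arrays left out, Cyp4a14 ran from -0.20 to -0.0094, Cyp4f14 from -0.15 to -0.091, Cyp4f15 from -0.056 to -0.0026 and Cyp4v3 from -0.084 to -0.0095. Cyp4f15 was 0.0090 with Agilent's processed signals, 0.0077 with median centring, 0.013 in the deposited table and 0.24 within slide 3. Cyp4v3 was 0.018 in the deposited table, 0.044 within slide 1 and 0.081 within slide 3. Cyp4f14 was negative under every alternative, from -0.16 within slide 3 to -0.03 in the deposited table. The count of correlated pairs, 5 of 28, was 5 to 7 with single arrays left out and 2, 1 and 2 within slides 1, 2 and 3, where only 8 mice enter. Median centring gave 8 of 15 pairs, adjusted over the 6 genes above background alone, and the main ratios gave 6 of those 15. With the replicate number as a block the count was 3, from 12 differences between same-numbered mice, and Cyp4v3 no longer passed with Cyp4a10 (r = 0.49) or Cyp4a31 (r = 0.55), each with an adjusted permutation p of 0.357, while 0 genes passed for diet and 1122 against 802 had an unadjusted p under 0.05. Of the 12 numbers, 4 correlated best with their own partner. With median centring 378 genes had an unadjusted p under 0.05, within slide 1 there were 1268, within slide 2 there were 1630 and with array weights 1215. Without the filter it was 1241 of 37008 genes. The cause of these changes was not tested. The subsets of mice used for correlations with gene lists were chosen after seeing the data. Cyp4a12a and Cyp4a12b are limited by signal near background.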

Other observations

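GLU+GAL 3, lowest for Cyp4a10, Cyp4a14 and Cyp4a31, had a median pool-channel correlation of 0.998 with the other arrays, and GLU 5, highest for Cyp4a10 and Cyp4a31, had 0.997. GLU+GAL 3 was also the lowest of 24 mice for 5 of the 14 male-predominant genes tested, and GLU+GAL 8, the highest GLU+GAL mouse for Cyp4a10 and Cyp4a31, was the lowest for 4 of them. The shares of all genes lowest in these mice were not counted.

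In GLU 7 the male-predominant Elovl3, a fatty acid elongase, and Cyp2d9 were highest of all mice, at log2 ratios of 1.82 and 1.28, and the female-predominant Cyp3a44 and Cyp2b9 were lowest, at -2.87 and -0.77. In GLU+GAL 12 the same genes stood at -0.05 for Elovl3, 0.45 for Cyp2d9, -0.76 for Cyp3a44 and 0.16 for Cyp2b9, and neither Cyp4a12 probe was above background. Xist had a Cy5 signal of 53.7 in GLU+GAL 12, where every other mouse was well above background.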
